A study of Mus musculus with 8 samples.

Results

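The Hedgehog pathway begins at a set of proteins that release, bind or compete for Hedgehog ligands, and 6 of their genes were followed here in sorted mouse nephron progenitors. They are Ptch1, Hhip, the co-receptor genes Cdon, Boc and Gas1, and Disp1. The members were chosen by gene symbol as the genes of the pathway's receptors, co-receptors and negative feedback. They were chosen with earlier results of these data known, so counts of called members are not those of an unselected list. All 6 were found among the 24539 symbols of the count table. Each of them passed the filter on low counts, which kept 13459 genes.

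The cells came from kidneys of mouse embryos at E18.5 and were isolated by fluorescence-activated sorting of Six2GFPcre-positive nephron progenitors, the mesenchymal cells from which nephrons form. All 8 libraries carried Six2GFPcre, a transgene that couples GFP and Cre recombinase to Six2, so no library came from cells without Cre. The KO-labelled group was Smo c/c ; Six2GFPcre, with 2 conditional alleles of Smo, the membrane protein that relays the Hedgehog signal into the cell. The Het-labelled group was Smo c/+ ; Six2GFPcre and the WT-labelled group was Smo +/+ ; Six2GFPcre. The SmoM2-labelled group was Rosa26 SmoM2/+ ; Smo +/+ ; Six2GFPcre, in which 1 Rosa26 allele carries SmoM2, an active form of Smo. Each group had 2 libraries. The labels give neither the number of embryos in a library nor a statement that libraries came from separate embryos. The p-values therefore measure the spread between libraries, which may be technical in the KO- and Het-labelled pairs. The WT- and SmoM2-labelled pairs each held 1 male and 1 female library by Xist and Y-linked counts, and thus came from different embryos. The question, as the title and design text give it, is whether these progenitors need Hedgehog signalling, examined over different Smo doses.

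As background, a Hedgehog ligand must leave the cell that makes it, which is the task of Disp1, a membrane transporter. On the receiving cell the ligand binds Ptch1 together with the co-receptors Cdon, Boc and Gas1, and Ptch1 then stops holding Smo in its inactive state. Active Smo leads to target gene transcription by Gli factors. Ptch1 and the gene of Hhip, a ligand-binding antagonist at the cell surface, are themselves among the targets and thereby damp the signal, whereas Cdon, Boc and Gas1 are known in other embryonic tissues to be lowered by Hedgehog signalling. In the developing kidney Hedgehog ligands are best known as products of the ureteric epithelium that act on the surrounding mesenchyme.

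The listed counts summed to between 4422305 and 10305398 per library, and the KO-labelled libraries were the shallowest. Smo itself checks the labels. In CPM (counts relative to the scaled library size), its mean level was 12.1 for KO, 19.2 for Het, 369 for WT and 617 for SmoM2. The Het-labelled level goes against a label with 1 wild-type allele. Groups are therefore called by their labels throughout. By Xist and Y-linked counts both KO-labelled libraries were male and both Het-labelled libraries female, while the other groups had 1 library of each pattern. Nephron progenitor markers were high in every library, with a summed level of 9 genes between 1267 and 2126 CPM per kilobase of gene length. Of 6 endothelial markers Cldn5 alone stood out, at 15.6 and 12.0 CPM per kilobase for KO and at most 1.46 in the other libraries, while Pecam1, Cdh5, Kdr, Tek and Emcn were at most 0.949 in every library. In bulk RNA, fewer cells of a type and less RNA per cell cannot be told apart.

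The stretch directly upstream of the transcription start is shown for the 2 members that rose with SmoM2 and for Gas1, the most abundant member, which moved the other way in the KO- and Het-labelled libraries. The sequences are from RefSeq on GRCm38.p6, the assembly that mm10 also denotes, and run 5′ to 3′ on the strand of the gene up to the base before the start. Capitals mark the closest match in each window to the 9 letters GACCACCCA, the consensus bound by Gli factors, searched on both strands. The Ptch1 window is chr13:63565736-63565985 on the minus strand, the Hhip window chr8:80058009-80058258 on the minus strand and the Gas1 window chr13:60177536-60177785 on the minus strand.
Ptch1: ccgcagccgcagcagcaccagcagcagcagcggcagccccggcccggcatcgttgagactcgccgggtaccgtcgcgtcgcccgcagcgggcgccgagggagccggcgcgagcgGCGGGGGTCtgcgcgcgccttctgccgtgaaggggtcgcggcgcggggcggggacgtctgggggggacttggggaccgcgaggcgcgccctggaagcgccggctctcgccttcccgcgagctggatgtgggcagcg
Hhip: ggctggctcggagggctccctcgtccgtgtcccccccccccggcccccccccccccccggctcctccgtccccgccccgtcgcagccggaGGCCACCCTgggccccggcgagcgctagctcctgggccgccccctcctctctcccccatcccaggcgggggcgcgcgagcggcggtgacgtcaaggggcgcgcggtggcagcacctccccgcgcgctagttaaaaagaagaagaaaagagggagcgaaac
Gas1: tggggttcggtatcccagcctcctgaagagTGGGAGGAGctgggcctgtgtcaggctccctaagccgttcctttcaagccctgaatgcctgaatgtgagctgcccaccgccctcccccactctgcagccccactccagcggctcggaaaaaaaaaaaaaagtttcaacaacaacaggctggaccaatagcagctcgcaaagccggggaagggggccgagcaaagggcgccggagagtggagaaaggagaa

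The closest match had 6 of the 9 letters in the Ptch1 and Gas1 windows and 7 in the Hhip window. Windows of 250 bases were at hand for 5 members, 6 windows in all because Disp1 has a pair of starts. None of the 6 windows held 8 or 9 matching letters. Among all 32851 windows of this length, at least 7 letters matched in 51.8%, at least 8 in 5.79% and all 9 in 0.225%. These are matches of letters in a short window only. The Ptch1 and Hhip windows were rich in G and C, at 78.4% and 76%, compared with 58.8% for Gas1, 42.8% for Cdon, and 53.2% and 48.8% for the 2 Disp1 windows. The Ptch1 and Hhip windows overlapped no annotated exon, and the RefSeq start of Ptch1 lies inside the GENCODE span of the gene. The whole Gas1 window, 250 bases, lies in an exon of Gm48488, a long non-coding RNA gene on the opposite strand.

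On GRCm38, with GENCODE M21 gene models, Ptch1 (ENSMUSG00000021466.12) spans chr13:63508328-63573598, Hhip (ENSMUSG00000064325.4) chr8:79965851-80058006 and Cdon (ENSMUSG00000038119.15) chr9:35421128-35507652. Boc (ENSMUSG00000022687.12) spans chr16:44485049-44558897, Gas1 (ENSMUSG00000052957.8) chr13:60174405-60177365 and Disp1 (ENSMUSG00000030768.12) chr1:183086266-183221522. Gas1 consists of a single exon and the others are split, up to 27 merged exons in Ptch1. Stretches of 50 bases that also occur in the transcripts of another gene made up 17.0% of the longest Gas1 transcript, all of them in Gm48488. They made up 1.40% for Hhip, 0.368% for Ptch1 and 0% for Cdon, Boc and Disp1, so the paralogs Cdon and Boc share no such stretch. The strand setting of the counting is not given in the sources used here and Gm48488 has no row of its own in the table, so reads from it and from Gas1 cannot be told apart where they overlap.

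All 6 members differed among the 4 groups, where 41.0% of all tested genes did (edgeR quasi-likelihood test, Benjamini-Hochberg adjusted p under 0.05 over all genes, here and below). By p-value Smo ranked 1, Ptch1 2 and Hhip 3 of all tested genes, with an edgeR adjusted p of 9.22e-07 for Ptch1 and for Hhip. The adjusted p was 9.38e-05 for Gas1, 0.000366 for Cdon, 0.00132 for Disp1 and 0.0240 for Boc. For Boc it was 0.136 without Het-labelled replicate 1 and 0.166 without Het-labelled replicate 2.

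**Figure D1:**
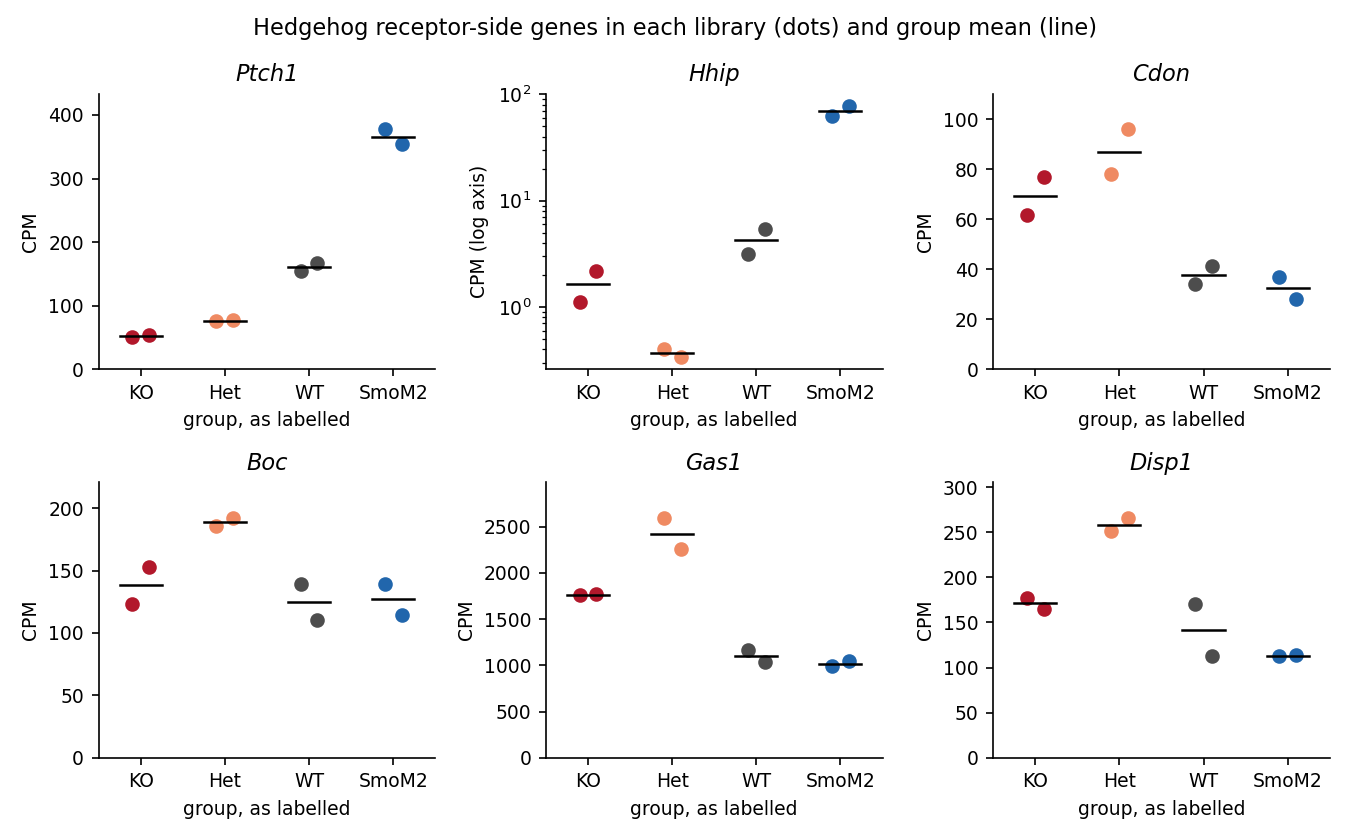
Level of each member in each library (dots, CPM) with the mean of the 2 libraries (line), by labelled group; the Hhip axis is logarithmic and the others start at 0. Ptch1 and Hhip were highest in the SmoM2-labelled libraries, at 354 to 377 CPM and 62.4 to 77.8 CPM, and Cdon, Boc, Gas1 and Disp1 were highest in the Het-labelled libraries.

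Ptch1, the receptor that keeps Smo inactive, followed the order of the labelled Smo dose. The KO-labelled libraries had 51.4 and 54.6 CPM and the Het-labelled libraries 75.5 and 76.9 CPM. The WT-labelled libraries had 155 and 168 CPM, and those labelled SmoM2 had 377 and 355 CPM. No 2 groups overlapped, and replicates lay much closer to each other than to the next group. Group means were 53.0 ± 2.32, 76.2 ± 1.00, 161 ± 8.92 and 366 ± 16.0 CPM (SD, n = 2) from KO to SmoM2, a 6.90-fold span.

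Ptch1 fell in the KO-labelled compared with the WT-labelled libraries by 1.61 on the log2 scale (SE 0.12, edgeR adjusted p 3.67e-05), which is 3.04-fold. In the Het-labelled libraries it fell by 1.08 (SE 0.12, edgeR adjusted p 0.000172), and in the SmoM2-labelled libraries it rose by 1.18 (SE 0.11, edgeR adjusted p 0.00219), or 2.27-fold. These 3 comparisons share the WT-labelled libraries. The KO- against WT-labelled value was -1.64 with both Het-labelled libraries left out of the fit, and it ranged from -1.67 to -1.24 over all 20 alternatives. Between the KO- and Het-labelled libraries the log2 difference was -0.52 (SE 0.12, edgeR adjusted p 0.0257). That call was lost without any one of the 4 libraries compared, with adjusted p between 0.0580 and 0.147, and the difference shrank to -0.32 (adjusted p 0.117) once each library's trend over gene length was removed.

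Hhip, the surface antagonist that takes up ligand, covered the widest range. Its raw counts by library were 5 and 10 for KO, 3 and 2 for Het, 34 and 50 for WT, and 610 and 673 for SmoM2. Only the SmoM2-labelled libraries thus held more than 50 reads of the gene, and the Het-labelled libraries were at or under the floor of 3 counts taken as the limit of detection. In CPM the libraries stood at 1.11 and 2.18, at 0.401 and 0.340, at 3.17 and 5.45, and at 62.4 and 77.8, in the same order.

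The rise of Hhip with SmoM2 was 4.03 on the log2 scale (SE 0.27, edgeR adjusted p 8.51e-05), or 16.4-fold over the WT-labelled libraries, from 4.31 ± 1.61 to 70.1 ± 10.9 CPM (SD, n = 2). It lay between 3.68 and 4.47 when any single library was left out. Hhip was at least 9.46-fold lower in the Het-labelled than in the WT-labelled libraries, computed against the floor of 3 counts per library (edgeR adjusted p 0.00114). In the KO-labelled libraries it fell by 1.36 compared with the WT-labelled libraries (SE 0.42, edgeR adjusted p 0.0359). That call rests on few reads: the adjusted p was 0.231 without KO-labelled replicate 1 and 0.154 without WT-labelled replicate 2. It was also above the threshold in a fit of the 2 groups alone (0.0695), with sex as a covariate (0.0583) and with the length trend removed (0.155). The KO-labelled level was at least 3.61-fold above the Het-labelled floor, which did not pass the threshold (edgeR adjusted p 0.0744), although the libraries did not overlap.

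With SmoM2, 2 of 6 members were called, Ptch1 and Hhip, and both rose. Of all genes 0.223% were called, 0.156% higher and 0.0669% lower. The other 4 members overlapped between the SmoM2- and WT-labelled libraries. Their 95% intervals of the log2 difference were -0.60 to 0.19 for Cdon, -0.32 to 0.36 for Boc, -0.39 to 0.16 for Gas1 and -0.69 to 0.05 for Disp1. A doubling or halving would have been a log2 difference of 1 or -1, which lies outside each of these intervals. The median log2 difference of the 6 members was -0.05, and that of all tested genes 0.00.

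**Figure D2:**
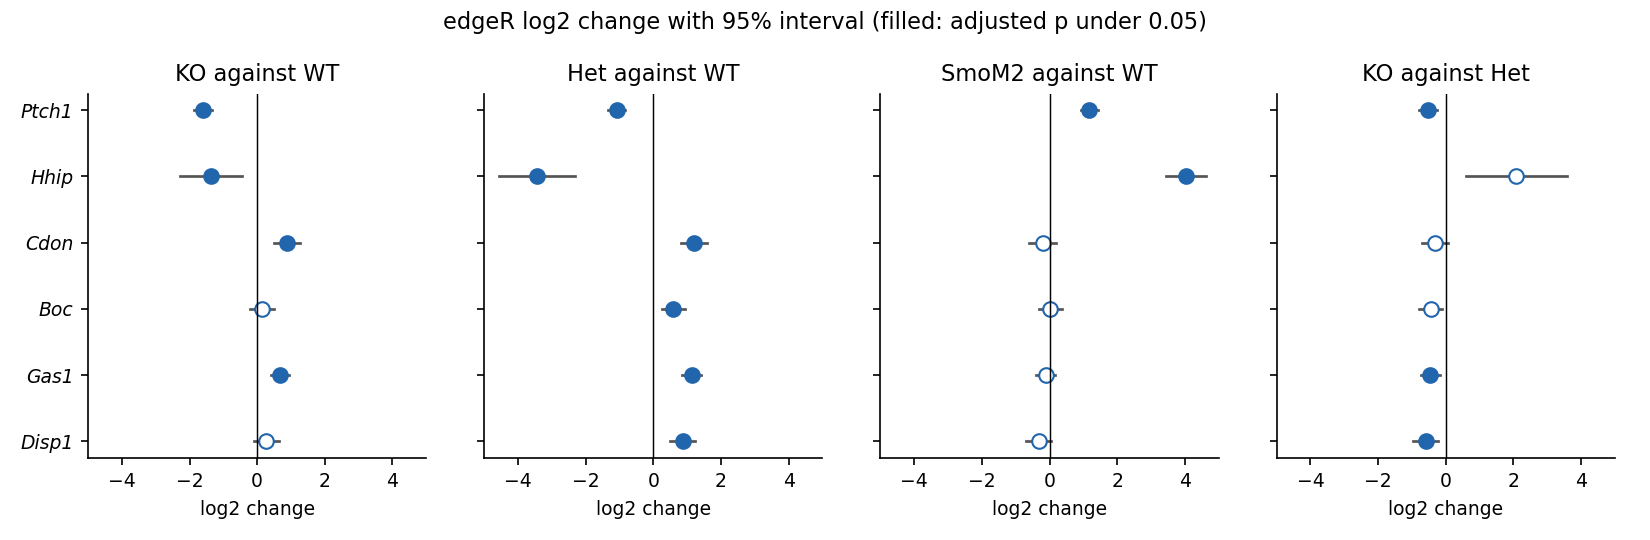
Log2 change of each member (points; filled where the edgeR adjusted p is under 0.05) with its 95% interval (lines) in the 4 comparisons. Ptch1 and Hhip lie below 0 in KO and Het and above 0 in SmoM2 against WT, Cdon and Gas1 lie above 0 in KO and Het, and the Hhip estimates that involve the Het-labelled libraries rest on a group at the floor.

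Gas1, a lipid-anchored co-receptor, was by far the most abundant member. Per kilobase of gene length it reached 352 ± 28.8 CPM per kilobase (SD, n = 2) in the WT-labelled libraries, compared with 28.2 ± 4.58 for Boc, 27.1 ± 7.85 for Disp1 and 21.0 ± 1.16 for Ptch1. Cdon, at 5.22 ± 0.682, and Hhip, at 0.475 ± 0.177, were the lowest on this scale. Within that group Disp1, at 32.7 and 21.6, overlapped both Boc and Ptch1, while Boc, at 31.5 and 24.99, lay above Ptch1, at 20.2 and 21.9. Gas1 made up between 89.6% and 94.0% of the summed co-receptor level in every library.

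Gas1 measured 1761 and 1769 CPM for KO and 2594 and 2254 CPM for Het. It measured 1167 and 1040 CPM for WT and 990 and 1043 CPM for SmoM2. The WT- and SmoM2-labelled libraries overlapped, and both lay below every KO- and Het-labelled library. Gas1 rose by 0.68 in the KO-labelled (SE 0.13, edgeR adjusted p 0.00401) and by 1.14 in the Het-labelled libraries (SE 0.13, edgeR adjusted p 0.000228) compared with the WT-labelled libraries. The KO-labelled level was lower than the Het-labelled level by a log2 difference of -0.46 (edgeR adjusted p 0.0433). That adjusted p was 0.0537 without SmoM2-labelled replicate 1, 0.0556 without SmoM2-labelled replicate 2 and between 0.0899 and 0.300 without a KO- or Het-labelled library.

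Cdon, an immunoglobulin-type co-receptor, showed the same order of groups at a much lower level. By library it had 61.6 and 77.1 CPM for KO, 78.2 and 96.0 CPM for Het, 34.2 and 41.2 CPM for WT, and 37.1 and 28.2 CPM for SmoM2. As with Gas1, every KO- and Het-labelled library lay above every WT- and SmoM2-labelled library. Cdon rose by 0.88 in the KO-labelled (SE 0.18, edgeR adjusted p 0.00645) and by 1.21 in the Het-labelled libraries (SE 0.18, edgeR adjusted p 0.00108). The KO-labelled libraries lay below the Het-labelled ones without overlap, but this difference of -0.33 did not pass the threshold (95% interval -0.72 to 0.06, edgeR adjusted p 0.260).

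Boc, the paralog of Cdon, moved least. Its values were 123 and 153 CPM for KO, 185 and 192 CPM for Het, 139 and 111 CPM for WT, and 139 and 114 CPM for SmoM2. The Het-labelled libraries were above all others, and the other 3 groups overlapped. Boc rose by 0.59 in the Het-labelled compared with the WT-labelled libraries (SE 0.16, edgeR adjusted p 0.0174). This call was lost without Het-labelled replicate 1 (adjusted p 0.0831), Het-labelled replicate 2 (0.102) or WT-labelled replicate 2 (0.137). In the KO-labelled libraries the log2 difference from the WT-labelled libraries was 0.14 (95% interval -0.20 to 0.49, edgeR adjusted p 0.537).

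Boc reads per kilobase numbered 664 and 438 for every 100 of Cdon in the WT-labelled libraries, and 324 to 386 in the KO- and Het-labelled libraries. The paralogs thus lay closer together in the latter. The summed co-receptor level of Cdon, Boc and Gas1 was 604 ± 8.10 CPM per kilobase for KO, 829 ± 74.0 for Het, 386 ± 32.7 for WT and 358 ± 7.13 for SmoM2 (SD, n = 2), of which Gas1 was the main part.

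Disp1, which releases ligand from the producing cell, had 177 and 165 CPM for KO, 251 and 266 CPM for Het, 170 and 112 CPM for WT, and 113 and 114 CPM for SmoM2. The WT-labelled pair spread widely and overlapped the KO-labelled libraries. Disp1 rose by 0.87 in the Het-labelled compared with the WT-labelled libraries (SE 0.17, edgeR adjusted p 0.00422). Compared with the WT-labelled libraries, the KO-labelled difference was 0.28 (95% interval -0.09 to 0.64, edgeR adjusted p 0.256). It ranged from -0.02 to 0.60 when any single library was left out, with 0.60 without WT-labelled replicate 1. The KO-labelled level lay below the Het-labelled level by a log2 difference of -0.59 (edgeR adjusted p 0.0483), and that adjusted p was between 0.0556 and 0.174 without any one KO-, Het- or SmoM2-labelled library.

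Counted over the 6 members, 4 were called in KO- against WT-labelled libraries, Cdon and Gas1 higher and Ptch1 and Hhip lower, where 23.0% of all genes were called, 11.6% higher and 11.4% lower. In Het- against WT-labelled libraries all 6 were called, 4 higher and 2 lower, where 25.3% of all genes were called, 13.1% higher and 12.2% lower. The median log2 difference of the members was 0.21 and 0.73 in these comparisons, against 0.03 and -0.02 over all tested genes. In KO- against Het-labelled libraries 3 members were called, Ptch1, Gas1 and Disp1, all lower in the KO-labelled libraries, where 9.43% of all genes were called, 4.33% higher and 5.10% lower. These last calls did not stand when any single KO- or Het-labelled library was left out, which left 0 members called (edgeR), and 1 member was called without either SmoM2-labelled library.

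The opposite moves of receptor and co-receptor can be read within a library, where no scaling between libraries enters. Each library's trend over gene length was not removed from the ratios below. For every 100 reads per kilobase of Gas1 there were 1.19 and 1.26 of Ptch1 for KO and 1.19 and 1.39 for Het. There were 5.42 and 6.58 for WT, and 15.5 and 13.9 for SmoM2. The KO- and Het-labelled libraries overlapped in this ratio, and the other groups stood apart from them and from each other. With Disp1 as the base, the KO- and Het-labelled libraries had 19.6 to 22.4 of Ptch1 for every 100, the WT-labelled libraries 61.8 and 101, and the SmoM2-labelled libraries 227 and 211.

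**Figure D3:**
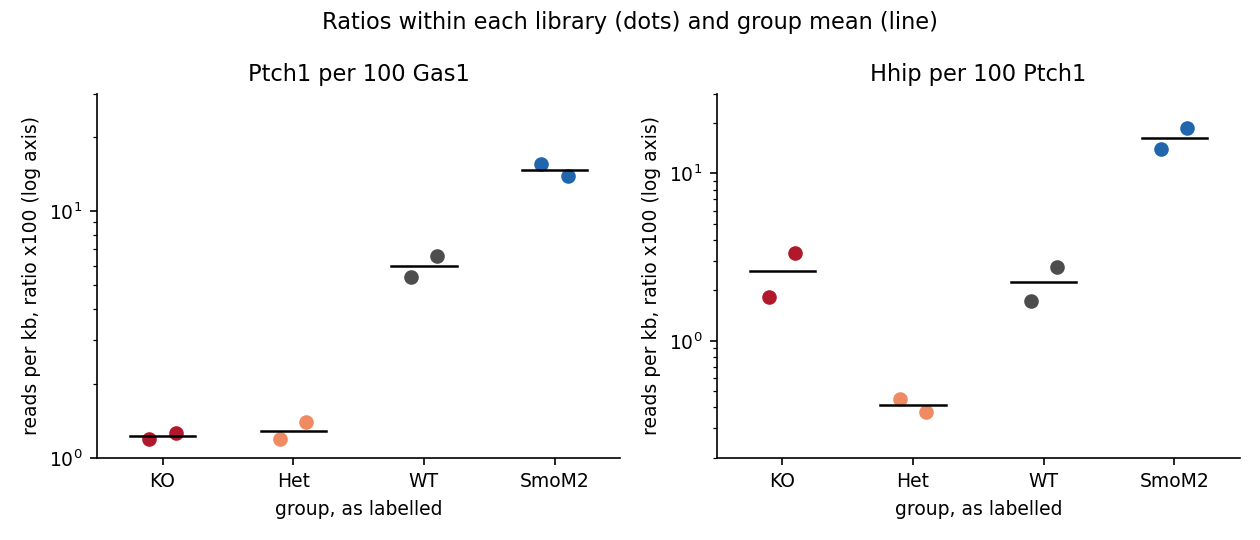
Ratio of reads per kilobase within each library (dots) with the group mean (lines) on logarithmic axes, for Ptch1 per 100 Gas1 (left) and Hhip per 100 Ptch1 (right). Ptch1 per 100 Gas1 stood between 1.19 and 1.39 in all KO- and Het-labelled libraries and reached 15.5 in a SmoM2-labelled library, and Hhip per 100 Ptch1 rose above the other groups in the SmoM2-labelled libraries alone.

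The 2 feedback genes did not keep a fixed proportion to each other. For every 100 reads per kilobase of Ptch1 there were 1.73 and 2.74 of Hhip for WT, and 14.0 and 18.55 for SmoM2. The KO-labelled values, 1.82 and 3.37, overlapped the WT-labelled ones, and the Het-labelled values, 0.449 and 0.373, rest on at most 3 reads.

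Several marker lists, each summed in CPM per kilobase, moved with these results. The 12 stromal markers summed to 31.1 to 165 CPM per kilobase over the KO- and Het-labelled and to 125 to 251 over the WT- and SmoM2-labelled libraries. Foxd1, a transcription factor of renal stroma, followed the order of Ptch1 at 3.36 ± 2.63, 7.53 ± 2.26, 74.8 ± 7.23 and 139 ± 24.1 CPM per kilobase (SD, n = 2) from KO to SmoM2. Without Foxd1 the sums of the other 11 overlapped, at 29.6 to 159 and 55.1 to 112. None of the 12 was at 0 in both libraries of a group. Early nephron markers, 8 genes, summed to 188 to 414 over the KO- and Het-labelled and to 116 to 162 over the WT- and SmoM2-labelled libraries, which is the direction of Cdon and Gas1. In the same direction, the 9 nephron progenitor markers summed to 1460 to 2126 against 1267 to 1447, 4 podocyte markers to 10.2 to 14.3 against 5.84 to 9.84, and 4 erythroid markers to 5.39 to 15.5 against 0.647 to 3.23. Not every progenitor marker moved that way. Against WT 3 of the 9 were called higher and 1 lower for KO, and 5 higher and 0 lower for Het (edgeR). Crym had lower means for KO and Het (208 and 222) than for WT and SmoM2 (297 and 277). The sum of 4 immune markers peaked for Het, as did Cdon, Boc, Gas1 and Disp1, at 37.4 and 35.7, compared with 11.4 to 25.3 in the others. That peak came from Cd68 alone, with a Het mean of 34.5 CPM per kilobase. C1qa and Csf1r had lower means for Het (1.67 and 0.390) than for KO (2.86 and 0.714) or WT (2.65 and 0.706). Ptprc was at most 0.030 in every library. The sum of 8 genes of the dissociation stress response also peaked for Het, at 2114 and 2177, compared with 801 to 1526 in the others. Against WT 4 of these 8 were called higher for Het (edgeR), and the means of Hspa1a, Hspa1b and Atf3 were highest for SmoM2. With a stress score as covariate the Het- against WT-labelled log2 differences were 1.29 for Cdon, 0.86 for Boc, 1.17 for Gas1, 1.03 for Disp1 and -1.05 for Ptch1. The score was 0.42 and 0.67 for Het and -0.55 and -0.34 for WT, so its term was estimated from differences within the pairs. Stress and label therefore cannot be told apart by this fit. The adjusted p rose in that fit, to 0.0652 for Cdon, 0.127 for Boc and 0.102 for Disp1, while Ptch1, Hhip and Gas1 were still called (edgeR). The part of the other marker lists in the members' differences was not tested. Sex differed fully between the KO- and Het-labelled libraries, and its term was estimated from the WT- and SmoM2-labelled pairs. With sex as covariate the KO- against Het-labelled log2 difference was -0.51 for Ptch1 (edgeR adjusted p 0.0742), -0.50 for Gas1 (0.0677), -0.89 for Disp1 (0.0273) and -0.76 for Boc (0.0281). Hhip was then called higher in KO than in Het (edgeR adjusted p 0.0373), and Cdon was not called (-0.38, edgeR adjusted p 0.385).

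The rest of the pathway was described with a list of 34 genes, of which 29 could be tested. In KO- against WT-labelled libraries 1 was called higher and 7 lower, 8 of 29 where 23.0% of all genes were called, with a median log2 difference of -0.20. The 7 include Foxf1, which passed the filter through the SmoM2-labelled libraries alone. In Het- against WT-labelled libraries 5 were called higher and 4 lower, 9 of 29 where 25.3% of all genes were called, with a median of -0.03. In SmoM2- against WT-labelled libraries 2 of 29 were called, both higher, where 0.223% of all genes were called, with a median of 0.02. In KO- against Het-labelled libraries 3 of 29 were called, all lower, where 9.43% of all genes were called, with a median of -0.22. The medians over all tested genes in these comparisons were 0.03, -0.02, 0.00 and 0.02. DESeq2 called 8, 7, 3 and 6 of the list, in the same order.

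Among ligands, Shh had at most 2 counts in any library, Ihh at most 13 and Dhh at most 7, and none of them passed the filter. Scube1, whose protein helps to carry ligand away from the cell, fell by 2.58 in the KO-labelled (SE 0.34, edgeR adjusted p 0.000613) and by 1.41 in the Het-labelled libraries (SE 0.30, edgeR adjusted p 0.00654). The second of these was lost without Het-labelled replicate 1 (adjusted p 0.0544). Disp1 moved the opposite way in the Het-labelled libraries.

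On the receptor side, Lrp2, a large endocytic receptor that binds Hedgehog ligand, measured 39.8 ± 4.18 CPM for Het and 15.3 ± 3.29 CPM for WT (SD, n = 2, log2 1.38, edgeR adjusted p 0.000996), and thus also peaked in the Het-labelled group. Of the glypicans, heparan sulfate proteoglycans of the cell surface, Gpc4 rose for KO and Het by 0.86 and 0.64, and Gpc6 fell in the KO-labelled libraries by 1.02. The Gpc4 call for Het was lost without any one Het- or WT-labelled library, with adjusted p between 0.0788 and 0.156.

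Downstream, Gli1 and Gli2 fell with Ptch1. Gli1, a transcription factor and direct target of the pathway, had log2 changes of -2.81 and -3.15 for KO and Het and rose by 1.27 with SmoM2 (edgeR adjusted p 0.0427). The rise with SmoM2 was lost without WT-labelled replicate 1 (adjusted p 0.115), WT-labelled replicate 2 (0.0635), SmoM2-labelled replicate 1 (0.155) or SmoM2-labelled replicate 2 (0.199). Of the 3 other target genes, Foxf1, a forkhead factor, rose by 3.97 with SmoM2 (SE 0.44, edgeR adjusted p 0.00784), a size near that of Hhip, from 8 counts in each WT-labelled library. Its adjusted p was 0.0598 without WT-labelled replicate 1 and 0.0605 without SmoM2-labelled replicate 1. Foxf1 had 0 counts in the KO-labelled libraries, at least 1.23-fold lower than WT by the floor of 3 counts per library. That call was lost without any one KO- or WT-labelled library. Foxf1 had at most 8 counts in any KO-, Het- or WT-labelled library, and 142 and 96 for SmoM2. It passed the filter through the SmoM2-labelled libraries alone, and was tested in KO against WT only because of them. Smo itself had log2 changes of -4.93 for KO and -4.28 for Het.

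**Figure D4:**
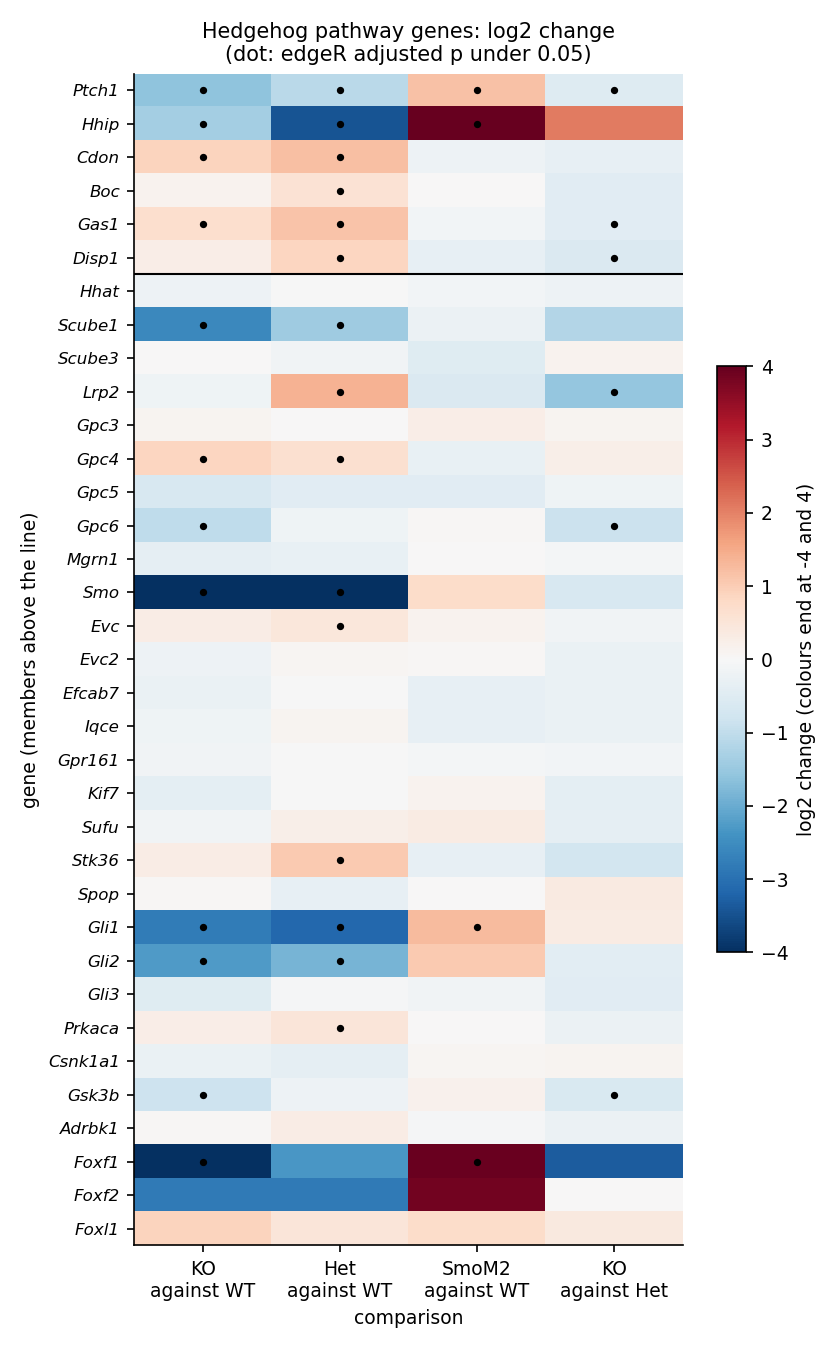
Log2 change of the 6 members (above the line) and the 29 tested genes of the pathway list in the 4 comparisons; red is higher and blue lower in the group named first, dots mark an edgeR adjusted p under 0.05 and colours end at -4 and 4. Ptch1, Gli1 and Gli2 share blue in KO and Het against WT. Hhip estimates that involve Het, Foxf1 estimates that involve KO or Het, and all Foxf2 estimates rest on a group at the floor.

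The genes whose profile over the 8 libraries lay nearest to each member were sought among 12299 other genes with an average log2 CPM of at least 1. Nearness was the root mean square difference of the centred log2 CPM values. Nearest to Ptch1 were Slit3 (0.21), Ubash3b (0.22) and Ptprd (0.26). Slit3, a secreted guidance protein, rose from 7.79 CPM in the KO-labelled to 14.4, 25.1 and 62.8 CPM in the Het-, WT- and SmoM2-labelled means. Hhip had no close neighbour. Its nearest genes, Nell2 (1.09), Wnt11 (1.10) and Inpp4b (1.16), reached 32.4, 29.2 and 19.1 CPM in the SmoM2-labelled means.

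The co-receptors and Disp1 had much nearer neighbours, and they also spread less between libraries. Nearest to Gas1 were Yars2 (0.08), Ino80e (0.09) and Pim2 (0.10), and nearest to Cdon were Prss36, Nhlrc1 and Dse (each 0.11). Nearest to Boc were Dcbld2 (0.06), Emsy (0.08) and Ssh2 (0.08), and nearest to Disp1 were Fzd1 (0.10), Rbm12b2 (0.10) and Ppip5k1 (0.11). Fzd1, a Wnt receptor, had means of 90.6 CPM for KO, 156 CPM for Het, 87.0 CPM for WT and 67.3 CPM for SmoM2, the same order as Disp1. Dse, an enzyme of dermatan sulfate synthesis, had means of 47.9, 65.1, 25.3 and 22.0 CPM in that order of groups.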

How the data were processed

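RNA sequencing of 8 libraries was used. The authors deposited raw read counts per gene and RPKM values for each library, with a gene length, per the file headers. STAR, featureCounts and Subread and the build mm10 are named in the submitters' processing notes, while versions, annotation and strand setting are not given in the sources used here. RNA was purified with a kit for single cells and selected for poly(A), per the labels' protocols. The listed counts made up 81.1% to 83.3% of the library totals that the deposited RPKM values imply.

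The test on counts was that of edgeR 4.0.16 (R 4.3.3, filterByExpr by group, TMM scaling, a quasi-likelihood fit of 4 group means with 4 residual degrees of freedom, Benjamini-Hochberg adjustment over 13459 genes, threshold 0.05, two-sided). The biological coefficient of variation was 13.5%. An exact permutation test of 2 libraries against 2 cannot go below p = 0.333, so none was run. CPM are counts relative to the scaled library size, with a prior count of 2 on the log2 scale. A group with at most 3 counts in each library was taken as at the floor, which covers counting error only. The model was tested on data simulated from a common mean level per gene, with changes put into the KO-labelled libraries alone. That simulation held no trend over gene length, sex or stress, so it cannot speak for calls that these may affect. The members and lists were chosen with earlier results of these data known. Named genes are the members, a list of pathway genes of which some planned entries are not reported here, and the 3 genes nearest in profile to each member. Alternatives were RLE scaling, RPKM-implied totals, DESeq2 1.42.0, other filters, a replicate block, a length trend and each library left out. Alternatives chosen after seeing the data were sex or a stress score as covariate, length and GC trends together, and both Het-labelled libraries left out.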

Additional observations from a re-analysis of the deposited data

How the results depend on the processing

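The members' log2 differences were recomputed 467 times over the 4 pairwise comparisons. No called value changed sign, 41 lost and 8 gained a call. Ptch1 and Hhip were the members called with SmoM2 under each of the 20 alternatives. For KO- against Het-labelled libraries 3 members were called, but 1 with RPKM-implied totals or the length trend removed, 5 without a filter, 0 with length and GC trends removed, where differences shrank (Disp1 -0.34, reported -0.59), and 0 to 4 with a library left out. With the stress score 0 were called, with differences of -0.54 for Ptch1, -0.49 for Gas1 and -0.71 for Disp1. For Het- against WT-labelled libraries the stress score left 3 of 6 members called. The 3 lost differences were 1.29 for Cdon, 0.86 for Boc and 1.03 for Disp1. The score was higher in both Het-labelled libraries than in every KO- and WT-labelled one, so neither fit can tell stress from label. Genes called over the whole table for SmoM2- against WT-labelled libraries were 30 as reported, 82 with DESeq2, 356 without a filter, 54 with the replicate block or sex, 8 in a fit of the 2 groups, 11 with the stress score, 19 with length and GC trends removed, and 8 to 81 with a library left out. KO- against Het-labelled libraries gave 1269, then 2217 without a filter, 623 with the length trend, 403 with the stress score, 344 with length and GC trends removed and 36 to 1472 with a library left out. KO- against WT-labelled libraries gave 1304 to 2924 with a library left out (3100 as reported), Het- against WT-labelled 1401 to 3615, or 530 with the stress score (3403), and the 4 groups together 3656 to 5510 (5515). Leaving out a library leaves fewer samples; the cause of the other moves was not tested. With RPKM-implied totals 64.7% of KO- against Het-labelled calls were higher, against 45.9% as reported, and 59.3% against 70% with SmoM2. Replicate numbers share no stated litter or batch. Replicate differences correlated across genes at 0.39 between WT- and SmoM2-labelled groups and between -0.06 and 0.10 otherwise. In the WT- and SmoM2-labelled groups replicate 1 was male and replicate 2 female, so the replicate block and the sex covariate coincide there. Under the replicate block Hhip was also called in KO- against Het-labelled libraries (log2 2.05, edgeR adjusted p 0.0407). In the fit of the KO- and Het-labelled groups alone Hhip fell under the filter and gave no value. At this depth Hhip in the KO- and Het-labelled libraries rests on at most 10 reads.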
